A study of Mus musculus with 503 samples.

Results

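A set of 10 axon guidance genes was followed here in sorted perivascular cells of the mouse spinal cord before and after a crush injury. They were taken by symbol from the 56701 gene rows of the single-cell count matrix, and each of the 10 symbols had 1 row. Of these, 8 encode guidance cues, namely the class 3 semaphorins *Sema3a*, *Sema3c*, *Sema3d* and *Sema3f*, the transmembrane semaphorin *Sema5a*, the slits *Slit2* and *Slit3*, and the netrin *Ntn1*. The other two, *Nrp1* and *Nrp2*, encode neuropilins, the receptors that bind class 3 semaphorins.

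All cells were labelled as coming from female GLAST-CreERT2;R26R-tdTomato;Pdgfrb-eGFP mice, although the study's reporting summary gives both sexes for its sequencing experiments. In these mice tamoxifen lets Cre act in cells that use the GLAST (*Slc1a3*) promoter and so turns on tdTomato, while EGFP marks cells that use the *Pdgfrb* promoter (pericytes, vascular smooth muscle cells and fibroblasts). Single tdTomato+EGFP+ and tdTomato-EGFP+ cells were sorted from Uninjured cord and from the crushed segment 3 days after a complete spinal crush (3d_SCI), which gave 4 groups. The tdTomato-EGFP+ gate holds cells of other lineages together with any GLAST-expressing cell that did not recombine. Each deposited sample was 1 cell and no label named an animal, so each group counted as 1 sample. There was no replicate check, no test was run, and the values of the 2 plates of a group are given as a technical spread.

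Guidance cues steer growing axons by attraction or repulsion. Class 3 semaphorins are secreted and signal through neuropilins paired with plexins, slits are secreted and signal through Robo receptors, and netrin-1 acts through DCC, neogenin and UNC5 receptors. The same molecules also guide endothelial and perivascular cells, and semaphorins and other cues have been described in the fibrotic scar, the fibroblast-rich tissue that fills a spinal cord lesion and that axons rarely cross.

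On the mm10 build the members lie at separate places, with *Sema3a* (chr5:13125414-13602565), *Sema3c* (chr5:17574281-17730268), *Sema3d* (chr5:12383385-12588948) and *Slit2* (chr5:47983138-48307733) on the plus strand of chromosome 5. *Sema3f* lies at chr9:107681500-107710475 on the minus strand, *Sema5a* at chr15:32244810-32696341 on the plus strand, *Slit3* at chr11:35121224-35708507 on the plus strand and *Ntn1* at chr11:68209364-68400823 on the minus strand. *Nrp1* lies at chr8:128358604-128503363 and *Nrp2* at chr1:62703285-62818695, both on the plus strand. None shares exon bases with another annotated gene, except that *Nrp1* shares 80 of its 9785 exon bases with *Mir1903* on the same strand.

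Sequences upstream of *Slit2* and *Sema3d* are shown because these cues came mostly from the same fibroblast-like cells described below. *Slit2* was also the only member called higher after injury in any comparison of whole groups. It reached the level asked of a gene, given below, only through the group in which it was called higher. The sequences are RefSeq promoter windows (GRCm38.p6, plus strand) limited to bases before the annotated gene. They hold 233 bases at chr5:47982905-47983137 for *Slit2* and 250 bases at chr5:12382916-12383165 for *Sema3d*. The *Slit2* window ends directly before the gene start given above. That of *Sema3d* ends short of its own gene start, and the bases between are not shown. Capitals mark every match of 4 motifs on either strand, TATAAA (the TATA box), GGGCGG (the GC box), TGANTCA (the AP-1 site) and GGAATG (the TEAD site).
Slit2: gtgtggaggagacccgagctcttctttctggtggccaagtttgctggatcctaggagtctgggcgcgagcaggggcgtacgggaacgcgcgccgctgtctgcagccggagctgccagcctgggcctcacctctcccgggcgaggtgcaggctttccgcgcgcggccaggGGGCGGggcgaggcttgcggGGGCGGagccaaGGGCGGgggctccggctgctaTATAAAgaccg
Sema3d: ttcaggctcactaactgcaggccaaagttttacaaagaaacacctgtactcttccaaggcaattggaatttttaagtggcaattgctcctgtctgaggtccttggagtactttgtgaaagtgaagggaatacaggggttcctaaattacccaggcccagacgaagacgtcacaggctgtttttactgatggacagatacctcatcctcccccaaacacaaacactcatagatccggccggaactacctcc
The *Slit2* window is 70.4% G and C and holds 3 matches of the GC box (found in 30.3% of 32851 promoter windows of the same length) and 1 of the TATA box (in 11.9%). The *Sema3d* window is 46.8% G and C and holds no match of the 4 motifs, which says only that these letters are not in this window. The AP-1 site occurs in 6.41% of windows of the length used for *Slit2*, and the TEAD site in 11.9%.

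Of 503 cells, whose 503 count columns all differed, 468 were kept. From Uninjured cord these were 65 and 72 tdTomato+EGFP+ and 46 and 60 tdTomato-EGFP+ cells of plates 209 and 213, and after injury 88 and 34 tdTomato+EGFP+ and 58 and 45 tdTomato-EGFP+ cells of plates 211 and 215. The groups held 38406035, 26887338, 31133429 and 25645409 counts in this order. Both uninjured groups lay on plates 209 and 213 and both injured groups on plates 211 and 215. Injury and plate therefore cannot be told apart. Each plate held both sorted populations. Their differences were taken from sums over both plates, and the plates served to check the sign. The 34 tdTomato+EGFP+ cells of plate 215 stood apart, with a median of 14770 counts per cell against 328802 on plate 211. The latter plate held 94.61% of the counts of injured tdTomato+EGFP+ cells but 47.58% of those of injured tdTomato-EGFP+ cells. A difference between these sums can therefore lie outside its plate values. *Slc1a3* summed to 212 CPM in uninjured tdTomato+EGFP+ and 31.5 in tdTomato-EGFP+ cells, and to 206 and 10.7 after injury, in the direction of the sort on every plate.

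Values are CPM (counts scaled to a common total) of the sum over the kept cells of a group, with an exact Poisson 95% interval in parentheses where given. These intervals, and the binomial ones below, cover counting error only, and in a sum fewer cells with a transcript and less transcript per cell cannot be told apart. A difference is a difference of log2(CPM + 1), and a gene was called when it differed 2 times or more with the same sign on both plates (sorted populations) or in all 4 pairings of injured with uninjured plates (injury). Of the members, 9 reached the mean of 5 CPM over the groups that was asked of a gene, among 12304 genes in all, and *Sema3a* did not. *Slit2* reached it only through injured tdTomato-EGFP+ cells (19.3 CPM) and *Sema3f* only through uninjured tdTomato-EGFP+ cells (17.2 CPM). Each was under 5 CPM in all other groups. Their calls against those groups are thus in part built in by this limit and are a description only. CPM of different genes were not set against each other, since they were not corrected for gene length.

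**Figure D1:**
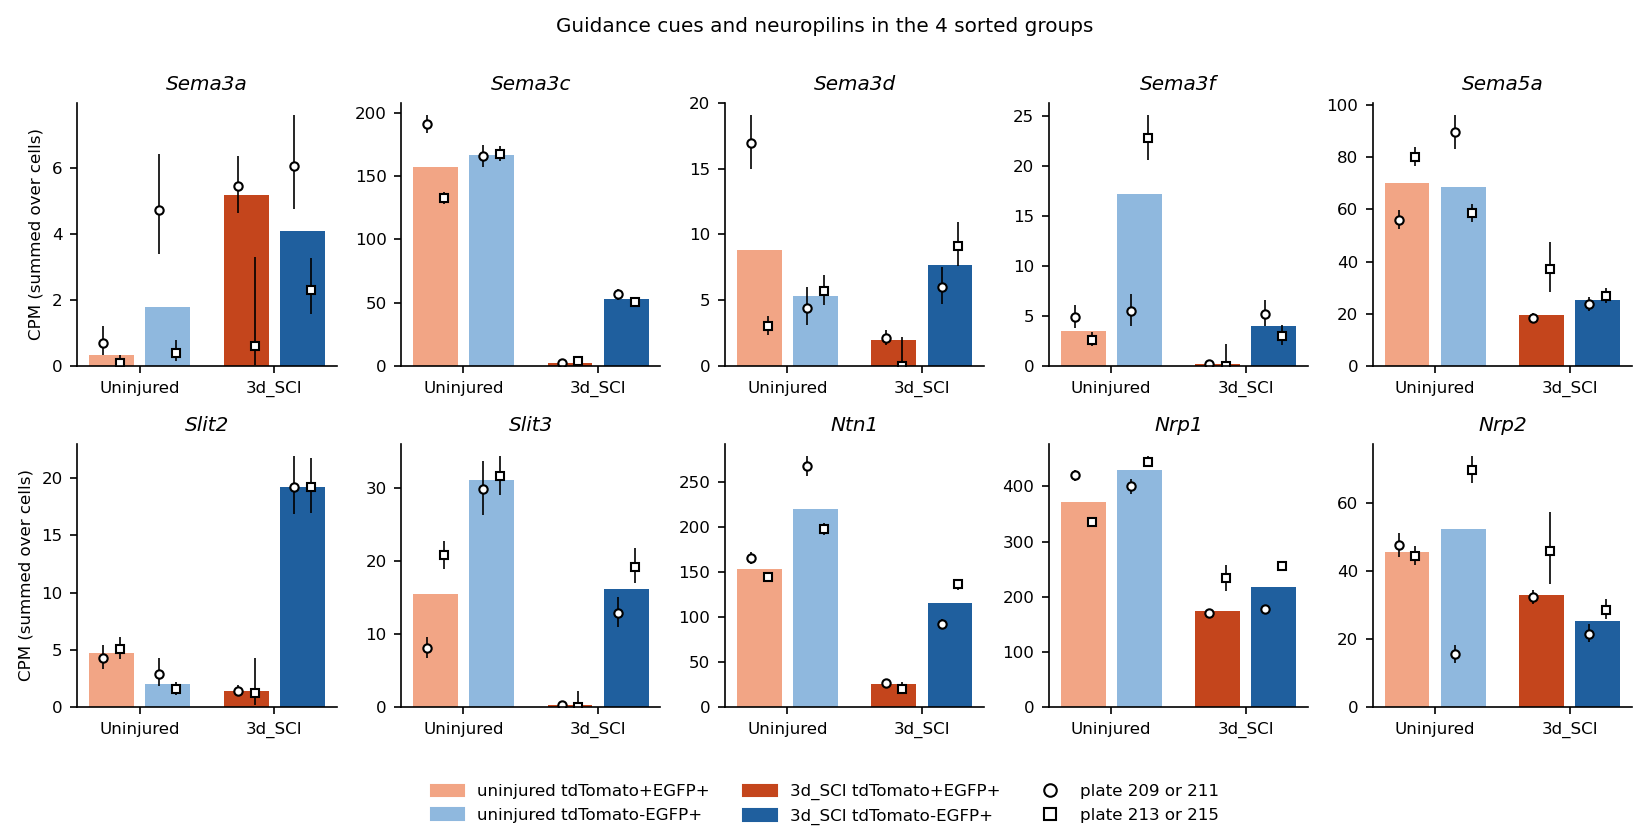
CPM of each guidance gene (vertical axis, own scale in each panel, summed over cells) in tdTomato+EGFP+ (orange) and tdTomato-EGFP+ (blue) cells of Uninjured (pale) and 3d_SCI cord (dark). Bars are group sums, open symbols the 2 plates with exact Poisson 95% intervals. *Sema3c* stands at 157.2 and 167 CPM in the uninjured groups, at 2.70 CPM in injured tdTomato+EGFP+ cells and at 53.3 CPM in injured tdTomato-EGFP+ cells, whereas *Slit2* is highest in the last of these.

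*Sema3c*, a secreted semaphorin also known from heart and vessel development, was lower after injury in both populations. Its sum was 157.2 CPM (153.2 to 161) in uninjured tdTomato+EGFP+ cells, with 191 on plate 209 and 132.8 on plate 213. In uninjured tdTomato-EGFP+ cells it was 167 CPM (162 to 172), with 166 and 168 on the same plates. The uninjured sorted populations overlapped between plates and differed by -0.09 on the log2 scale. After injury the sum was 2.70 CPM (2.15 to 3.34) in tdTomato+EGFP+ cells, 2.65 on plate 211 and 3.58 on plate 215, and 53.3 CPM (50.5 to 56.2) in tdTomato-EGFP+ cells, 56.6 and 50.3 on these plates. Both injured groups lay below every uninjured plate value, and the tdTomato+EGFP+ group lay far below the other. The log2 difference from uninjured cord was -5.42 in tdTomato+EGFP+ cells (plate pairs -5.72 to -4.87), 42.8 times lower on the CPM + 1 scale, and -1.63 in tdTomato-EGFP+ cells (-1.72 to -1.53). Endothelial transcripts moved with it, as *Pecam1* was 540.3 CPM in uninjured and 24.4 CPM in injured tdTomato+EGFP+ cells, and without the cells of clusters 2 and 5, described below, the injury difference of *Sema3c* was -2.80 in tdTomato+EGFP+ and -1.91 in tdTomato-EGFP+ cells. The injured tdTomato+EGFP+ group was 3.88 lower on the log2 scale than its tdTomato-EGFP+ counterpart.

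The remaining class 3 semaphorins were low and rested on few cells. *Sema3f*, whose product prefers neuropilin-2, summed to 3.54, 17.2, 0.161 and 4.02 CPM in the order of the counts above, that is tdTomato+EGFP+ then tdTomato-EGFP+ cells, first of uninjured and then of injured cord. In injured tdTomato+EGFP+ cells this was 5 counts in 4 cells, and on plate 215 no count, which allows up to 1.79 CPM there. *Sema3d*, a secreted semaphorin of the developing vasculature and heart, summed to 8.83, 5.28, 1.99 and 7.64 CPM in the same order, and 1 cell held 51.62% of its counts in the first group and 62.68% in the second. *Sema3a*, the classic repellent that binds neuropilin-1, summed to 0.339, 1.79, 5.20 and 4.09 CPM. Its injured tdTomato+EGFP+ counts came from 26 cells (21.3%), against 8 uninjured ones (5.84%), and at the equal depth of 20000 counts a cell, explained below, from 6 cells (6%, 2.23 to 12.6) against 2 (1.57%, 0.191 to 5.57). On plate 215, however, that injured group had 0.596 CPM against 5.47 on plate 211, so the plate pairs of the injury difference ran from -0.08 to 2.57.

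*Sema5a*, a transmembrane semaphorin with thrombospondin repeats that can attract or repel axons, was lower after injury in both populations. It summed to 70.1 CPM (67.4 to 72.8) in uninjured tdTomato+EGFP+ cells, 56.1 and 80.1 on plates 209 and 213, and to 68.5 CPM in uninjured tdTomato-EGFP+ cells, 89.5 and 58.6 on these plates. After injury it was 19.5 CPM in tdTomato+EGFP+ cells, 18.5 and 36.97 on plates 211 and 215, and 25.4 CPM in tdTomato-EGFP+ cells, 23.7 and 26.9. Every injured plate value lay below every uninjured one, while the sorted populations overlapped at both times. The injury difference was -1.79 on the log2 scale in tdTomato+EGFP+ cells and -1.40 in tdTomato-EGFP+ cells.

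*Slit2*, a repellent ligand of Robo receptors, differed in opposite directions after injury in the sorted populations. It summed to 4.77 CPM (4.10 to 5.51) in uninjured tdTomato+EGFP+ cells, with 4.29 and 5.11 on plates 209 and 213, and to 1.97 CPM (1.48 to 2.58) in uninjured tdTomato-EGFP+ cells, with 2.895 and 1.53. In injured tdTomato+EGFP+ cells it was 1.41 CPM (1.03 to 1.90), 1.43 and 1.19 on plates 211 and 215. In injured tdTomato-EGFP+ cells it was 19.3 CPM (17.6 to 21.04), with 19.3 on each plate. Injured tdTomato-EGFP+ cells were thus above all other plate values, and injured tdTomato+EGFP+ cells below all of them, although the latter's interval overlapped that of uninjured tdTomato-EGFP+ cells. The injury difference was 2.77 in tdTomato-EGFP+ cells (plate pairs 2.38 to 3.00) and -1.26 in tdTomato+EGFP+ cells (-1.48 to -1.13), where the latter fell under the 2 times needed for a call with TMM or DESeq2 scaling and, without clusters 2 and 5, was -1.59 but differed in sign among plate pairs (-2.19 to 0.12) and was not called.

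*Slit3*, the slit best known outside the nervous system, in vessels, bone and diaphragm, was nearly absent from injured tdTomato+EGFP+ cells. Those cells held 10 counts of it, 0.321 CPM (0.154 to 0.591), with 0.340 on plate 211 and no count on plate 215. The other sums were 15.4 CPM in uninjured tdTomato+EGFP+ cells (8.02 and 20.8 on the 2 plates), 30.98 in uninjured tdTomato-EGFP+ cells (29.8 and 31.6) and 16.2 in injured tdTomato-EGFP+ cells (12.9 and 19.2). On the log2 scale the injured tdTomato+EGFP+ group differed by -3.64 from its uninjured counterpart and by -3.70 from the injured tdTomato-EGFP+ group.

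*Ntn1*, which encodes the laminin-related attractant netrin-1, was likewise lowest in injured tdTomato+EGFP+ cells. It summed to 153.1 CPM in uninjured tdTomato+EGFP+ cells, 165 and 144.2 on plates 209 and 213, and to 220 CPM (214 to 226) in uninjured tdTomato-EGFP+ cells, 267 and 198. After injury it was 26.02 CPM (24.3 to 27.9) in tdTomato+EGFP+ cells, 26.3 and 20.3 on plates 211 and 215, and 115.3 CPM (111.2 to 120) in tdTomato-EGFP+ cells, 92.3 and 136.2. No plate value of injured tdTomato+EGFP+ cells came near those of the other groups. The injury difference was -2.51 on the log2 scale there (plate pairs -2.97 to -2.41) and -0.93 in tdTomato-EGFP+ cells (-1.52 to -0.54), and the injured populations differed by -2.11.

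The neuropilin sums differed by less than 2 times between the sorted populations at both times. *Nrp1*, co-receptor for class 3 semaphorins and VEGF, summed to 371 CPM (421 and 336 on plates 209 and 213) and 430.4 CPM (400.3 and 445) in the uninjured groups. After injury it was 173 CPM (169.9 and 234 on plates 211 and 215) in tdTomato+EGFP+ and 218 CPM (177 and 256) in tdTomato-EGFP+ cells. Its injured plate values lay below its uninjured ones in both populations, by 1.09 and 0.98 on the log2 scale, but the tdTomato+EGFP+ difference was -0.42 with TMM scaling and was then not called. *Nrp2*, the neuropilin preferred by semaphorin 3F and VEGF-C, summed to 45.8, 52.4, 33.1 and 25.3 CPM, and 1 cell held 48.05% of its counts in uninjured tdTomato-EGFP+ cells, where the plates gave 15.5 and 69.9. It was called in no comparison of whole groups.

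**Figure D2:**
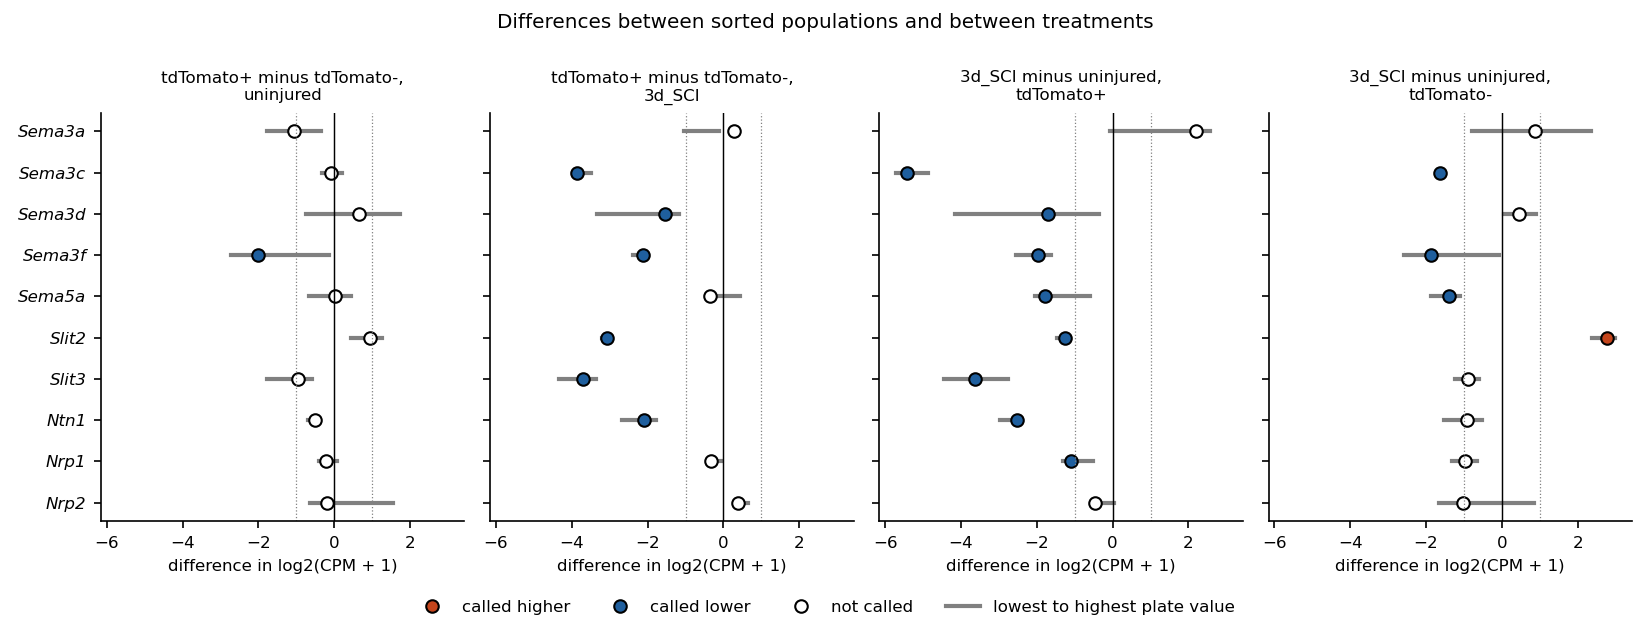
Differences in log2(CPM + 1) of each guidance gene (horizontal axis) between sorted populations and between treatments, with filled circles for called genes (red higher, blue lower), open circles for genes not called and grey lines from the lowest to the highest plate value. In the uninjured comparison of populations *Sema3f* alone is filled, and *Slit2* in tdTomato-EGFP+ cells, at 2.77, is the only filled red point.

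Counted by comparison, most members were not called between the sorted populations of the uninjured cord. Of 9 members 1 was called lower in tdTomato+EGFP+ cells, *Sema3f* at -2.001, where 3.49% of all genes were called lower, and 0 were called higher (4.45% of all genes). The median difference of the 9 was -0.19 against 0.01 over all genes tested. After injury 6 of 9 were called lower in tdTomato+EGFP+ than in tdTomato-EGFP+ cells, where 18.4% of all genes were, and 0 higher (3.88%). Beside *Sema3c*, *Slit3* and *Ntn1* these were *Slit2* at -3.07, *Sema3f* at -2.11 and *Sema3d* at -1.53. The median of the 9 was -2.11 against -0.35 over all genes.

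Within tdTomato+EGFP+ cells 8 of 9 members were called lower after injury, all but *Nrp2*, where 33.7% of all genes were, and 0 higher (10.2%). The median was -1.79 against -0.59 over all genes, a median that was 0.055 with TMM scaling and 0.188 with DESeq2 scaling. With either of these scalings 5 of 9 members were called lower, without *Sema3d*, *Slit2* and *Nrp1*, where 19.1% (TMM) and 16.7% (DESeq2) of all genes were lower and 19.5% and 22.3% higher. Within tdTomato-EGFP+ cells 3 of 9 were called lower (*Sema3c*, *Sema5a* and *Sema3f*, at -1.86) against 16.2% of all genes, and 1 higher (*Slit2*) against 9.43%. The injury difference itself was lower in tdTomato+EGFP+ than in tdTomato-EGFP+ cells for 5 of 9 members (20.5% of all genes), by 4.03 for *Slit2*, 3.79 for *Sema3c*, 2.74 for *Slit3*, 2.18 for *Sema3d* and 1.59 for *Ntn1* on the log2 scale. Without clusters 2 and 5 that of *Sema3c* was -0.89, with plate values from -1.81 to 0.89, and was not called. No member had a higher one (4.31%). The comparisons share groups, and their counts are not independent of each other. The 4 calls of *Sema3f* and the 3 of *Sema3d* were all lost without the cell of largest count in each group, and also without plate 213 (*Sema3f*) or plate 209 (*Sema3d*), because the difference or the mean CPM then fell under its limit. *Sema5a* was at -0.90 and not called in tdTomato+EGFP+ cells without plate 211.

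Shares of cells gave a view that does not depend on how much a single cell contributes. To make depths equal, each cell was thinned to 20000 counts, which left out 10, 14, 22 and 1 shallower cells of the groups in the order above. *Sema3c* then had a count in 59.06% (49.98 to 67.7, exact binomial) of tdTomato+EGFP+ and 56.52% (45.8 to 66.8) of tdTomato-EGFP+ cells from uninjured cord. After injury the shares were 6% (2.23 to 12.6) and 32.35% (23.4 to 42.3). Without thinning the shares were 68.6%, 62.3%, 9.84% and 40.8%. *Ntn1* was found in 66.9%, 61.96%, 19% and 56.9% of thinned cells (74.5%, 67.9%, 36.1% and 81.6% without thinning), so its share in injured tdTomato-EGFP+ cells was close to the uninjured ones while that of injured tdTomato+EGFP+ cells was not.

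*Slit2* was a transcript of few cells throughout, in 4.72%, 7.61%, 2% and 14.7% of thinned cells (9.49%, 12.3%, 14.8% and 23.3% without thinning). The thinned interval of injured tdTomato-EGFP+ cells was 8.47 to 23.1%, and those of the uninjured groups were 1.75 to 9.999% and 3.11 to 15.05%. *Nrp1* was found in 86.6%, 85.9%, 92% and 81.4% of thinned cells (91.2%, 80.2%, 90.98% and 95.2% without thinning). At such high shares a change in level can hardly show in the share of cells. *Nrp2* was found in 34.6%, 15.2%, 35% and 23.5% of thinned cells (51.1%, 27.4%, 63.9% and 58.3% without thinning). At least 1 of the 8 cues was found in 92.9% and 95.7% of thinned uninjured cells, and in 53% and 77.5% of injured ones. Without thinning the shares were 91.97% and 88.68% before and 76.23% and 94.17% after injury. In tdTomato-EGFP+ cells the direction thus depended on thinning.

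**Figure D3:**
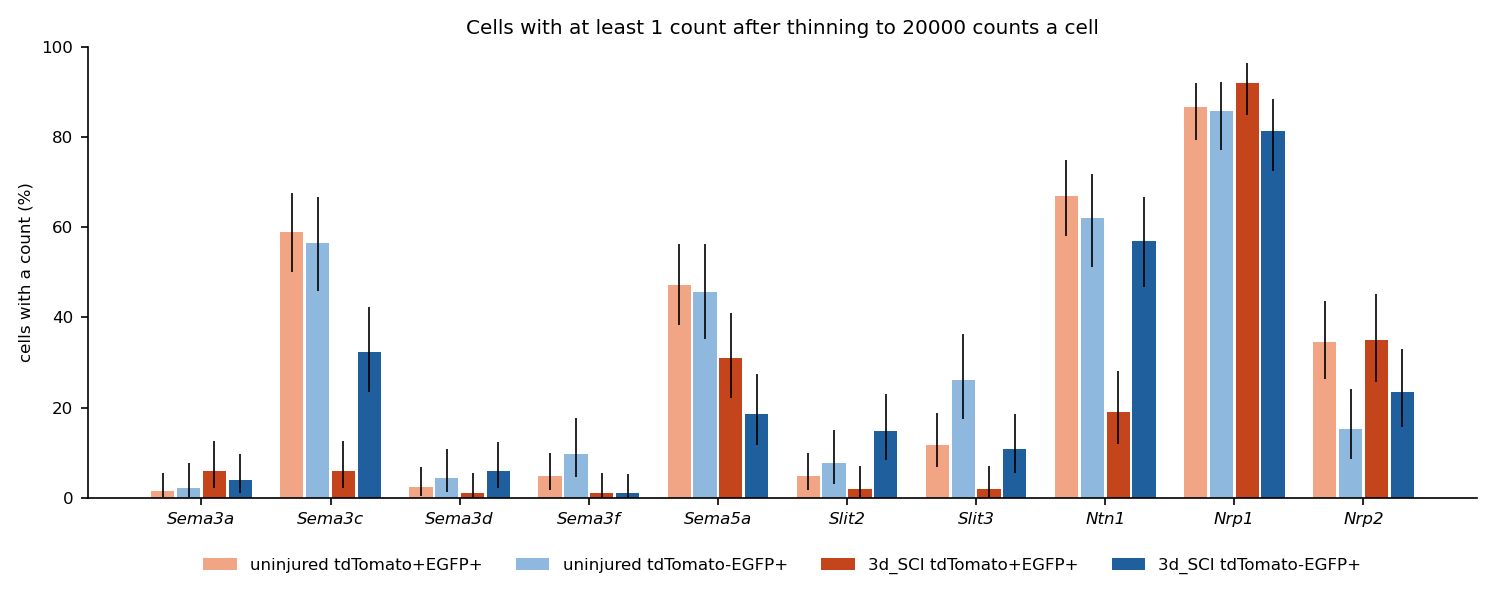
Share of cells with at least 1 count of each guidance gene (vertical axis, percent) after thinning to 20000 counts a cell, in the 4 groups, with exact binomial 95% intervals. *Sema3c* is found in 59.06% of uninjured and 6% of injured tdTomato+EGFP+ cells, whereas *Nrp1* lies between 81.4% and 92% in all groups.

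Cues and receptors were often found in the same cell before injury. A class 3 semaphorin together with *Nrp1* or *Nrp2* was found in 60.6%, 56.5%, 13% and 31.4% of thinned cells in the order of the groups. With or without a neuropilin, a class 3 semaphorin was found in 64.6%, 64.1%, 14% and 36.3% of them. As *Nrp1* was found in most cells of every group, the joint shares lay close to those of the cues. Whether they exceeded what separate detection would give was not tested. *Sema3c* and *Ntn1* shared a cell in 44.9%, 36.96%, 2% and 20.6% of cells in the same order. *Slit2* and *Slit3*, in contrast, were found together in 3.92% of tdTomato-EGFP+ cells after injury (4 cells) and in 1.09% before it (1 cell). No thinned uninjured or injured tdTomato+EGFP+ cell held both, which allows a thinned share of up to 2.36% and 3%. Without thinning both slits were found in 2.92% and 1.89% of uninjured and in 1.64% and 14.56% of injured tdTomato+EGFP+ and tdTomato-EGFP+ cells. The other shares here are of thinned cells, so a missing count does not show that a gene was off.

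The kept cells formed 7 clusters, built without the members. Cluster 3 (72 cells) had all 8 perivascular fibroblast markers raised and is called perivascular fibroblast-like. It also had 4 of 7 scar fibroblast markers raised (*Col5a1*, *Col8a1*, *Fn1* and *Thbs2*), so the name does not mean cells at rest. Clusters 4 and 6 (48 and 33 cells) were pericyte-like, with 7 and 8 of 9 pericyte markers raised, cluster 4 also having 4 of 7 scar fibroblast and 2 of 6 vascular smooth muscle markers raised, and cluster 7 (18 cells) was like vascular smooth muscle cells (vSMC-like), with 5 of 6. Clusters 2 and 5 had 7 and 4 pericyte markers raised together with all 5 endothelial markers and were not named. Of tdTomato+EGFP+ cells they held 44.5% and 14.6% before and 1.64% and 0.82% after injury. Of tdTomato-EGFP+ cells they held 48.1% and 9.43% before and 4.85% and 11.65% after injury. Cluster 1 had 6 of 6 cycling markers, 6 fibroblast markers, 5 of 7 scar fibroblast and 2 of 6 vascular smooth muscle markers raised. It was led by cycling genes, was not named either and held 81.15% of injured tdTomato+EGFP+ cells. Among its raised markers were *Acta2*, *Tagln*, *Tnc*, *Thbs2* and *Itga5*. The study describes strong expression of these genes in its myofibroblasts. Whether the cells of this cluster correspond to them was not tested.

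**Figure D4:**
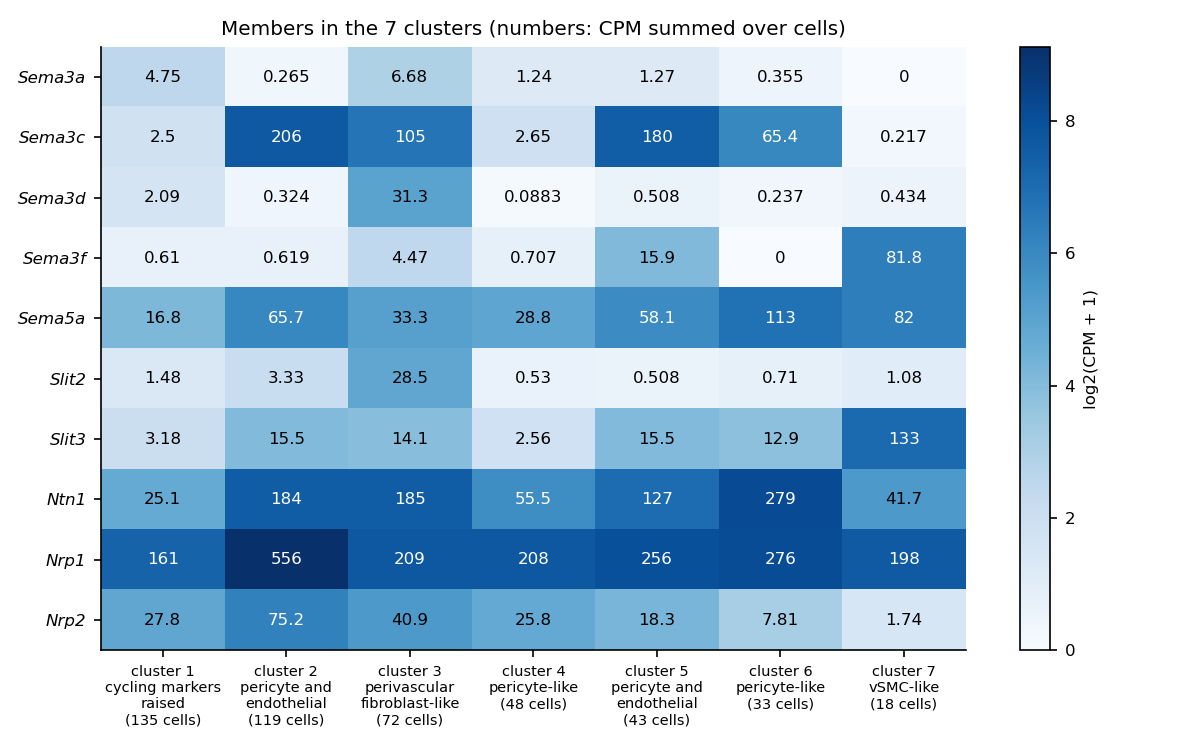
CPM of each guidance gene (rows) in the 7 clusters (columns), summed over cells and written in each field, with shading by log2(CPM + 1). *Slit2* and *Sema3d* have their highest level in the perivascular fibroblast-like cluster 3, *Slit3* and *Sema3f* in the vSMC-like cluster 7, and cluster 1, which holds most injured tdTomato+EGFP+ cells, is low in most cues.

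The cues were spread unevenly over the clusters, with some sharing a cluster as their highest. *Slit2* summed to 28.5 CPM in the perivascular fibroblast-like cluster and to at most 3.33 CPM in any other, and *Sema3d* to 31.3 CPM there and at most 2.09 CPM elsewhere. *Slit3* (613 counts in 15 of 18 cells, with a lower limit of 122.7 CPM) and *Sema3f* (81.8 CPM) were highest in the vSMC-like cluster, with no more than 15.5 and 15.9 CPM in any other. *Sema3c* was nearly absent from that cluster, at 0.217 CPM, and stood at 206 and 179.6 CPM in clusters 2 and 5, at 105.4 CPM in cluster 3 and at 65.4 CPM in cluster 6. *Sema5a* and *Ntn1* were highest in the pericyte-like cluster 6, at 113.1 and 279 CPM, against 28.8 and 55.5 CPM in the pericyte-like cluster 4, of whose 48 cells 47 were injured tdTomato-EGFP+ cells. *Nrp1* ranged from 161 CPM in cluster 1 to 556 CPM in cluster 2, while *Nrp2* ranged from 1.74 CPM in cluster 7 to 75.2 CPM in cluster 2.

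Cluster 1, the cycling and scar fibroblast marker-rich cells, was low in most cues. It held *Sema3c* at 2.50 CPM, *Slit2* at 1.48, *Slit3* at 3.18, *Sema3d* at 2.09 and *Ntn1* at 25.1 CPM. The neuropilins were present there, *Nrp1* at 161 and *Nrp2* at 27.8 CPM, and *Sema3a* reached 4.75 CPM, against 6.68 CPM in cluster 3 and at most 1.27 CPM in the other clusters.

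Endothelial transcripts moved with several of these levels. The 5 endothelial markers together summed to 3633 CPM (3225 and 4199 on the plates) and 3867 CPM (3862 and 3876) in uninjured tdTomato+EGFP+ and tdTomato-EGFP+ cells, and to 344 CPM (193 to 353) and 1456 CPM (1145 to 1798) after injury. None of the 5 was at 0 in a group sum, but *Pecam1*, *Cldn5* and *Tek* had no count on plate 215 in injured tdTomato+EGFP+ cells. *Cdh5* was 189.8 CPM before and 171 CPM after injury in tdTomato+EGFP+ cells, whereas *Pecam1*, *Cldn5*, *Flt1* and *Tek* were each lower, *Pecam1* at 540.3 and 24.4 CPM. Clusters 2 and 5 supplied 73.19% and 22.12% of the *Sema3c* counts of uninjured tdTomato+EGFP+ cells, and 58.4% and 17.7% of those of all cells. Without these clusters *Sema3c* was 20.4, 160.1, 2.07 and 41.9 CPM in the 4 groups, so that the uninjured populations were then apart, and the gap between the injury differences of the populations was -0.89 on the log2 scale and no longer called. *Ntn1* was then 133.8, 249, 25.9 and 123.9 CPM and *Slit2* 6.28, 3.49, 1.42 and 22.8 CPM, with the order of the groups as before. *Nrp1* was 229, 179, 174 and 214 CPM, so that the injury difference in tdTomato+EGFP+ cells was -0.39 and no longer called, and that in tdTomato-EGFP+ cells was 0.26. *Nrp2* had no count left in the 45 uninjured tdTomato-EGFP+ cells. The part of endothelial transcripts in the differences was not tested.

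The perivascular fibroblast-like cluster was examined by group after its levels had been seen, since it supplied 94.33% of the *Slit2* counts of injured tdTomato-EGFP+ cells (466 of 494) and 58.1% and 61.6% of their *Sema3c* and *Ntn1* counts. It held 26 and 8 uninjured and 19 and 19 injured tdTomato+EGFP+ and tdTomato-EGFP+ cells, 18.98%, 7.55%, 15.57% and 18.45% of the groups. All 8 fibroblast markers were detected in each group, from at least 339 CPM for the lowest of them. The endothelial markers summed to 103.9, 415, 216 and 98.1 CPM there, *Pecam1* to between 0.816 and 2.59 CPM, and the pericyte markers to 1788, 560.3, 578 and 307 CPM. The 7 scar fibroblast markers summed to 992, 2621, 3323 and 5539 CPM and the 6 cycling markers to 1.59, 0, 111.8 and 414 CPM, both highest in injured tdTomato-EGFP+ cells, and their part in the differences was not tested. *Slc1a3* was 754 and 35.2 CPM in the uninjured and 687 and 20.9 CPM in the injured sorted populations, so both gates held fibroblast-like cells that differed in the gene behind the lineage label. For its own comparison of uninjured with injured cells, the study left out tdTomato-EGFP+ fibroblasts with *Slc1a3* and *Pdgfra*, which it took as GLAST-expressing cells without recombination. Whether the tdTomato-EGFP+ cells of this cluster correspond to them was not tested.

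*Slit2* in these fibroblast-like cells was 9.63 CPM (7.69 to 11.9) before injury with a count in 3 of 26 tdTomato+EGFP+ cells, and 12.7 CPM (8.30 to 18.6) with a count in 4 of 8 tdTomato-EGFP+ cells. After injury it was 3.06 CPM (1.71 to 5.05) with a count in 3 of 19 tdTomato+EGFP+ cells, and 92.7 CPM (84.5 to 101.5) with a count in 14 of 19 tdTomato-EGFP+ cells. Plates 211 and 215 gave 92.04 and 93.2 CPM for the latter, and without the cell of largest count 80.1 CPM remained. Injured tdTomato-EGFP+ fibroblast-like cells were therefore above all other plate values for *Slit2*, which ran from 2.08 to 17.9 CPM. The log2 difference between the injured populations was -4.53, and 15.7% of 11830 genes tested in this cluster were called lower in that comparison. As the cluster was picked for its share of these *Slit2* counts, that difference is a description only.

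*Sema3c* separated these cells by sorted population at both times. It was 6.80 CPM with a count in 7 of 26 uninjured tdTomato+EGFP+ cells and 650.2 CPM with a count in 7 of 8 uninjured tdTomato-EGFP+ cells, or 365 CPM without the cell of largest count. After injury it was 1.43 CPM with a count in 2 of 19 tdTomato+EGFP+ cells and 157.9 CPM with a count in 17 of 19 tdTomato-EGFP+ cells. On the plates the tdTomato+EGFP+ values ran from 0 to 11.1 CPM and the tdTomato-EGFP+ values from 130 to 829 CPM, with no overlap. The log2 difference between the populations was -6.38 in uninjured cord, where 10.4% of genes were called lower, and -6.03 after injury. The sums over whole groups, where the uninjured populations overlapped, did not show this.

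*Ntn1* and *Slit3* had the same direction in their sums. *Ntn1* was 121.6 CPM (14 of 26 cells with a count) in tdTomato+EGFP+ and 355 CPM (8 of 8) in tdTomato-EGFP+ cells of uninjured cord, and 47.1 CPM (6 of 19) and 362 CPM (18 of 19) after injury. *Slit3* was 6.004 and 37.1 CPM before injury, the latter with 75 of its 76 counts in 1 cell, and 0.408 and 32.2 CPM after. The uninjured difference of *Slit3* (-2.44 on the log2 scale, plate values -2.98 to -0.21) therefore rests on that cell. *Sema3d* was 37.5 and 61.1 CPM in the uninjured populations, whose plates overlapped, and 2.86 (2 of 19 cells) and 36.2 CPM (15 of 19 cells) in the injured ones. *Sema3a* was 2.86 CPM in injured tdTomato+EGFP+ and 17.9 CPM in injured tdTomato-EGFP+ cells, with a count in 3 and 6 of 19 cells.

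*Sema5a* and *Nrp2* went the other way. *Sema5a* was 54.4 and 7.82 CPM in the sorted populations of uninjured cord, where plate 209 gave 14.9 and 14.4 CPM, and 37.8 and 2.39 CPM after injury. *Nrp2* was 59.5 CPM in uninjured tdTomato+EGFP+ cells, with a count in 12 of 26, and had no count in the 8 uninjured tdTomato-EGFP+ cells, which allows up to 1.47 CPM. After injury it was 51.2 CPM in tdTomato+EGFP+ cells (15 of 19) and 14.9 CPM in tdTomato-EGFP+ cells (8 of 19). *Nrp1* did not follow the sort, at 162, 224, 268 and 227 CPM in the order of the groups.

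**Figure D5:**
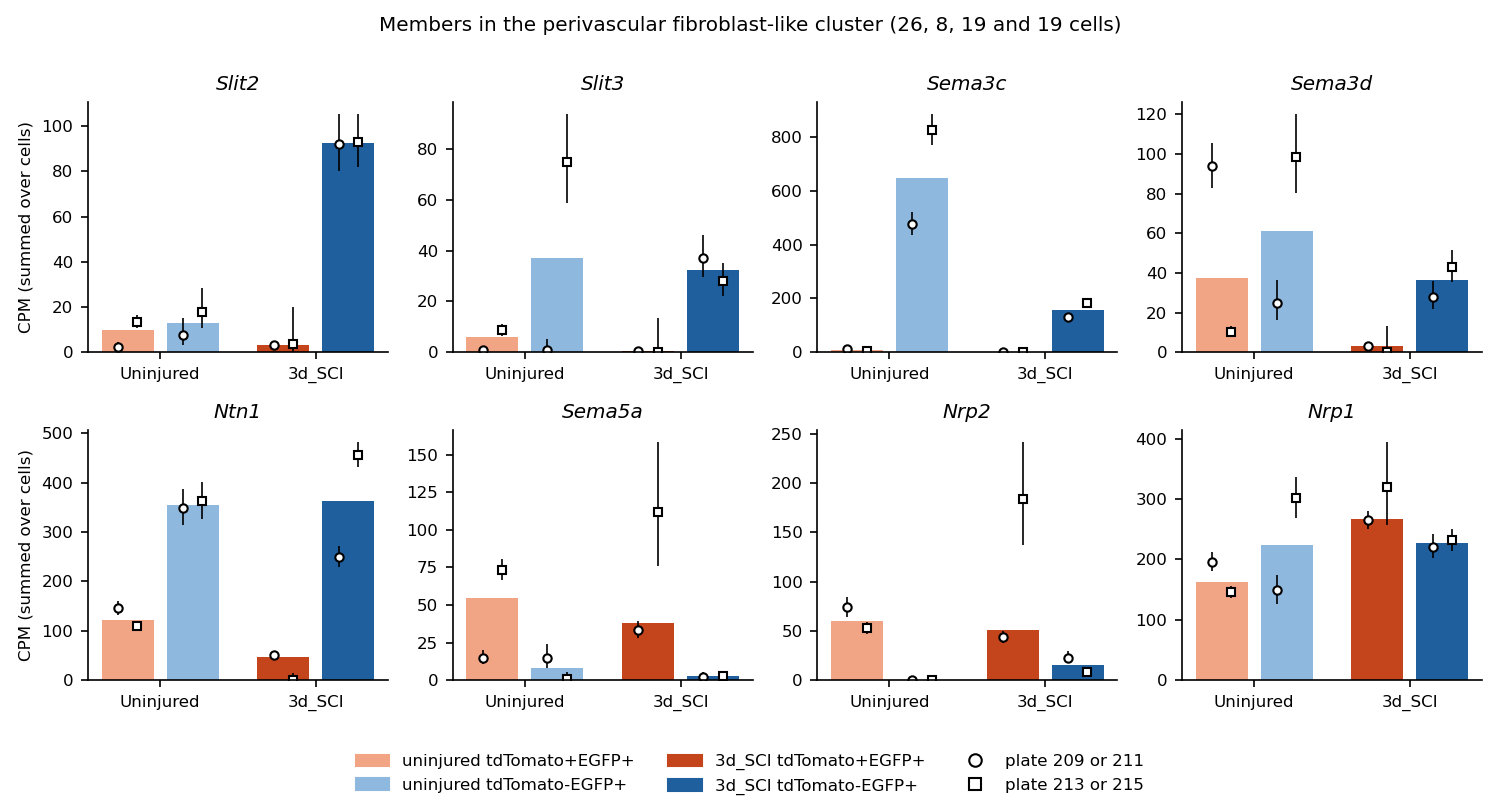
CPM of 8 guidance genes within the perivascular fibroblast-like cluster (vertical axis, own scale in each panel), with bars for group sums and open symbols for the 2 plates with exact Poisson 95% intervals. Injured tdTomato-EGFP+ cells hold *Slit2* at 92.7 CPM and *Sema3c* at 157.9 CPM against 3.06 and 1.43 CPM in injured tdTomato+EGFP+ cells, and *Sema5a* and *Nrp2* show the opposite order.

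In counts for the fibroblast-like cluster, 6 of the 10 members were called lower in tdTomato+EGFP+ than in tdTomato-EGFP+ cells after injury (15.7% of genes), and 2, *Sema5a* and *Nrp2*, higher (7.31%). Among the 6 are *Slit2*, *Sema3c* and *Ntn1*, on whose counts in injured tdTomato-EGFP+ cells the cluster was picked. For them the share of all genes is no even background. In uninjured cord 3 were called lower (10.4%), *Sema3c*, *Ntn1* and, through 1 cell, *Slit3*, and the same 2 higher (23.7%). After injury 4 were called lower within tdTomato+EGFP+ cells (19.3% of genes), *Sema3c*, *Sema3d*, *Slit3* and *Ntn1*, and 0 higher (5.95%). Within tdTomato-EGFP+ cells *Slit2* and *Nrp2* (the latter against no count before injury) were called higher (17.7%) and *Sema3c* lower (9.18%). The injury difference was lower in tdTomato+EGFP+ than in tdTomato-EGFP+ cells for 4 members (23% of genes), *Slit2*, *Slit3*, *Ntn1* and *Nrp2*, and higher for 0 (5.55%). When the cells were clustered without regression, 66 of these 72 stayed together, and the calls between sorted populations after injury were the same 8. Before injury the values of every member were identical in that setting, so the same 5 calls there are no separate check. The calls of *Ntn1* after injury in tdTomato+EGFP+ cells and for the gap between injury differences were then lost. At the lower resolution the cluster merged with cluster 1. The 8 uninjured tdTomato-EGFP+ cells and the 4 injured tdTomato+EGFP+ cells of plate 215 make those plate values the least certain.

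Of 69 other guidance genes, 38 reached 5 CPM. In injured cord 15 of the 38 were called lower in tdTomato+EGFP+ than in tdTomato-EGFP+ cells (18.4% of all genes) and 4 higher (3.88%). Within tdTomato+EGFP+ cells 18 were called lower after injury (33.7%) and 4 higher (10.2%). Within tdTomato-EGFP+ cells the counts were 10 lower (16.2%) and 2 higher (9.43%), and in the uninjured comparison of populations 2 lower (3.49%) and 5 higher (4.45%). The groups of genes named next are to be read against the same shares. None of 9 tested further semaphorins was called higher after injury in either population, while 6 in tdTomato+EGFP+ and 3 in tdTomato-EGFP+ cells were called lower. Among them *Sema3g*, a secreted semaphorin of arterial endothelium, was 63.1, 54.3, 2.57 and 14.7 CPM in the 4 groups, and *Sema6a*, a transmembrane semaphorin, was 96.8, 70, 5.11 and 22.9 CPM.

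The Robo receptors of the slits were called in opposite directions. *Robo1*, the widely used neuronal receptor, was 4.35 and 10.3 CPM in uninjured and 16.2 and 6.94 CPM in injured tdTomato+EGFP+ and tdTomato-EGFP+ cells, higher after injury in tdTomato+EGFP+ cells by 1.68 on the log2 scale. *Robo4*, the endothelial member, was 135.3 and 178 CPM before and 1.45 and 23.01 CPM after injury. Of 7 tested plexins, the signalling partners of neuropilins and receptors of other semaphorins, 4 were called lower after injury in tdTomato+EGFP+ cells, and *Plxnb1* was 107.8, 163, 5.94 and 83.8 CPM in the groups. Of the 2 tested netrin receptors, 0 were called higher and 1 lower, within tdTomato+EGFP+ cells. Ephrins and Eph receptors moved both ways: *Epha7* was called higher in tdTomato+EGFP+ cells at both times (50.6 against 16.6 CPM, and 65.3 against 23.3 CPM), whereas *Epha2* was 4.82 against 29.1 CPM after injury.

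The genes whose pattern over the 8 sums (4 groups on 2 plates each) was most like that of a member were sought among all tested genes, as Pearson's r of log2(CPM + 1). For *Sema3c* they were *Pitpnc1* (r = 0.998), *Arhgap10* (0.997) and *Ablim1* (0.996), and *Ablim1* stood at 515, 525, 11.2 and 148.8 CPM in the groups. For *Ntn1* they were *Tspan12* and *Exoc6* (0.992 each) and *Slc1a4* (0.991), and for *Sema5a* they were *Tgfa* (0.985), *Stk11* (0.983) and *Vapb* (0.98). *Slit3* was closest to *Acadl* (0.986), *Nrp1* to *Tspan14* (0.988), and *Nrp2* to *Sall1* (0.966). The sums share libraries, depth and cell makeup, and so many genes were searched that high values are a description only.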

How the data were processed

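Smart-seq3 libraries of single sorted cells were measured. The authors deposited 1 matrix of raw counts per gene and cell, aligned to a mouse genome (mm10 in the submitters' processing notes). The aligner and gene annotation, and whether reads or molecules were counted, are not given in the sources used here. Of 1968 columns, 1465 matched no sample label and were not used, and 92 spike-in rows (0.0314% of counts) were left out. Doublets were handled by the authors' singlet gates alone.

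Cells with at least 200 genes and under 20% mitochondrial counts were kept, less cells in which *Gfap* or *Ptprc* passed 1 on the ln(1 + counts per 10000) scale (0 cells, so cells with low counts of either stayed) or *Pecam1* passed 1 and exceeded *Pdgfrb* (34 cells). The study names these genes but gives no thresholds for them. Its upper limit of 1200 genes would have kept 33 of 468 cells and was used as an alternative only. Counts were summed per group, and per group on each plate, scaled to CPM and compared as log2(CPM + 1) differences. The rule for the calls was run on simulated counts that held counting error but no spread between plates or cells. That run therefore cannot show how the calls behave under such spread. Clusters came from Seurat 5.3.0 (2000 variable genes without the members, 20 principal components, resolution 0.5, with genes per cell and mitochondrial and ribosomal shares regressed). A marker was raised in a cluster at a log2 difference of 0.5 with a count in 50% of cells. Intervals were exact (scipy 1.17.1), and edgeR 4.0.16 and DESeq2 1.42.0 gave scaling factors only. Alternatives were scaling, weighting of cells, pseudocounts of 10 and 0.1 CPM, filters on genes and cells, single plates, thinning depth and clustering.

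The named genes were the members, the genes behind the sort, cell type markers, up to 3 other guidance genes per comparison and direction with the largest called differences, and up to 3 genes most like each member of 20 CPM or more. The members and lists were chosen with earlier results of these data known. The labels give 3 days after injury, which was followed here, where the series description gives 5 days.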

Additional observations from a re-analysis of the deposited data

Results flagged for a closer look

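*Slit2* differed after injury by 2.77 on the log2 scale in tdTomato-EGFP+ cells and by -1.26 in tdTomato+EGFP+ cells, with opposite signs in all 4 pairs of plates, and this difference between the populations was not tested. *Sema3d* differed by 0.46 in tdTomato-EGFP+ and by -1.72 in tdTomato+EGFP+ cells, again with opposite signs in all 4 pairs and not tested. Its counts rested on few cells. Spike-in RNA, which no comparison used, took 0.0984% of counts on plate 211, in every kept cell of that plate, and had 0 counts on plates 209, 213 and 215.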

How the results depend on the processing

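Under every alternative run, no called difference of a member changed sign. The calls of *Sema3c* and *Ntn1* between injured populations and after injury in tdTomato+EGFP+ cells, of *Sema3c* and *Sema5a* after injury in tdTomato-EGFP+ cells, and of *Ntn1* for the gap between injury differences were kept in 17 of 17 alternatives. *Slit2* and *Slit3* kept theirs between injured populations in 16 of 17, the exception being the limit of 20 CPM, under which they were not tested.

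Members called lower after injury in tdTomato+EGFP+ cells numbered 5 instead of 8 with TMM scaling, with DESeq2 scaling and with a pseudocount of 10, and 4 with a mean of 20 CPM or more. Scaling also moved the background. Among all called genes, higher ones were 23.3% in this comparison, 50.5% with TMM and 57.1% with DESeq2 scaling. They were 17.4%, 39.2% and 50.7% between injured populations, 36.8%, 57.6% and 54.3% after injury in tdTomato-EGFP+ cells, and 17.4%, 38.4% and 51.3% for the gap between injury differences. For the gap between injury differences, those called lower numbered 3 instead of 5 with a pseudocount of 10 and 2 with a mean of 20 CPM. Between injured populations they numbered 2 instead of 6 with a mean of 20 CPM.

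In uninjured cord 1 member instead of 0 was called higher in tdTomato+EGFP+ cells with a pseudocount of 0.1, a limit of 1.5 times or without plate 209 (*Slit2* each time), with at most 1200 genes a cell (*Nrp1*), and without every cell with *Pecam1* over 1 or without clusters 2 and 5 (*Nrp2*, the last alternative chosen after seeing the data). Without plate 213 it was 2. Those called lower there numbered 2 instead of 1 with a pseudocount of 0.1, no filter on low genes, a limit of 1.5 times or without clusters 2 and 5, 4 without every cell with *Pecam1* over 1 (*Sema3c*, *Sema3f*, *Slit3* and *Ntn1*), and 0 with a mean of 20 CPM.

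After injury in tdTomato-EGFP+ cells the members called higher numbered 0 instead of 1 with a mean of 20 CPM and 2 without every cell with *Pecam1* over 1 or without clusters 2 and 5 (*Slit2* and *Nrp2*). Those called lower numbered 6 instead of 3 with a limit of 1.5 times or without plate 215, and 5 without plate 209. The gap between injury differences had 1 member higher instead of 0 (*Nrp2*) without plate 209. The limits of 20 CPM and 1.5 times change counts by their construction, and for the rest the cause was not tested.

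The limit of 1200 genes left too few injured cells and was run for uninjured cord only. All other counts of members stayed within 1.5 times. No paired analysis was possible because the labels name no animals and each group is 1 sample. Depth was the limit for the low genes in injured tdTomato+EGFP+ cells of plate 215, where a count of 0 allows up to 1.79 CPM.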
